A study of Mus musculus with 68 samples.

Results

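The mouse miRNAs miR-322, miR-503, miR-351, miR-542, miR-450a and miR-450b are encoded close together on chromosome X. They were taken from the small RNA table by name, as every row whose stem is one of these 6, with all loci and both arms of each hairpin. The rule found 12 of the 480 rows. Of these, 8 had a value in every library, as did 320 rows of the whole table, and these 8 could be tested: mmu-mir-322-5p, mmu-mir-322-3p, mmu-mir-503-3p, mmu-mir-351-5p, mmu-mir-542-3p, mmu-mir-450a-1-5p, mmu-mir-450a-2-5p and mmu-mir-450b-5p. The rule reads names only and no measured value.

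The small RNA was sequenced from lungs of male wild-type mice of 2 inbred strains, the wild-derived CAST/EiJ and the common laboratory strain C57BL/6J. Mice breathed 1,3-butadiene (BD), an inhaled carcinogen, for 6 hours a day on weekdays over 2 weeks, or clean air. Small RNA libraries numbered 4 for CAST/EiJ under BD, 7 for CAST/EiJ in clean air, 4 for C57BL/6J under BD and 5 for C57BL/6J in clean air. RNA-seq of the same design gave 6, 7, 6 and 5 libraries, and ages were not given in the labels.

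A miRNA guides an Argonaute protein to messenger RNAs that pair with its seed, bases 2 to 8, and lowers their translation and stability. miR-322 and miR-503, the mouse relatives of human miR-424 and miR-503, belong to the extended miR-15/16 family and are known to restrain cell cycle genes such as the cyclins D and E. miR-351 carries the seed of miR-125, a family known for targeting p53 and regulators of haematopoietic cells. The part of the cluster that holds miR-322, miR-503 and miR-351 lies in the long non-coding transcript C430049B03Rik, and in the order of transcription it is followed by miR-542 and the miR-450 hairpins.

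The following mature sequences, from RefSeq (GRCm38.p6), are shown because the seed, in capitals, decides which other miRNAs a member can be compared with. All members lie on chromosome X.
miR-322-5p: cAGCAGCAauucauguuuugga
miR-503-5p: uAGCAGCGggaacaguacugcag
miR-351-5p: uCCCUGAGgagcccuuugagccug
miR-542-3p: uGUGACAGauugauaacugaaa
miR-450a-5p: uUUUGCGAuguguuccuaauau
miR-450b-5p: uUUUGCAGuauguuccugaaua
The next 2 are shown because they carry the seed of a member but come from other chromosomes, miR-125a-5p from 17 and miR-497-5p from 11.
miR-125a-5p: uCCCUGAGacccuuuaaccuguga
miR-497-5p: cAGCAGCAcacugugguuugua
The 12 rows hold 11 different seeds, since the loci miR-450a-1 and miR-450a-2 give the same 5p sequence. Their 2 rows differed by under 5 counts in 15 of 20 libraries and cannot be read as independent measurements. miR-450a-5p and miR-450b-5p share 15 of 22 bases by position, but not the seed.

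Small RNA libraries held 2066590 to 8474180 listed counts. The 3 deepest, from 7676680 counts up, were all C57BL/6J BD libraries. RNA-seq libraries carried the lung markers Sftpc, Sftpb, Scgb1a1, Ager and Cav1 at a summed 16742 to 28391 CPM, counts scaled to the size of the library, with library number 8 left out. In the same libraries, 7 skeletal muscle genes summed to 15.5 to 2298 CPM and 8 squamous epithelium genes to 4.84 to 2241 CPM. They varied within groups, at 46.0 to 2298 CPM and 12.8 to 2079 CPM in CAST/EiJ clean-air lungs. The part of such tissue in the members' values was not tested. Library number 8, labelled CAST/EiJ BD, went against its label. On an index of the 30 other miRNAs that best separated the strains in clean air, set to 0 at the mean of C57BL/6J and 1 at that of CAST/EiJ, it stood at 0.182, against 0.823 to 0.858 in the other CAST/EiJ BD libraries. Its RNA-seq counterpart stood at 0.0438 on an index of 100 genes, against 0.986 to 1.01. The library labelled number 8 is therefore left out of the tests and shown apart.

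Among rows outside the cluster, 5 were listed in every C57BL/6J library and in none of the 10 other libraries labelled CAST/EiJ. Library number 8 lacked 2 of them, both arms of miR-34c. The row mmu-mir-34c-5p was listed at 30690 to 109922 counts and mmu-mir-34c-3p at 402 to 1288 counts in the C57BL/6J libraries. Library number 8 listed the other 3, miR-1264-3p at 46, miR-1298-3p at 14 and miR-489-3p at 15 counts. miR-196b-5p, the 1 row listed in every other CAST/EiJ library and in no C57BL/6J library, was unlisted in number 8. These rows were found after seeing the data. Whether the authors quantified libraries of the 2 labels in the same way is not given in the sources used here, and its part in the strain differences was not tested. In library number 8, miR-542-3p stood at 83.8 CPM, miR-322-3p at 253 CPM and miR-450b-5p at 122 CPM, each above every other library labelled CAST/EiJ.

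miR-351-5p, the member with the seed of miR-125, was the most abundant, with 63.0 ± 1.89% of all cluster reads in CAST/EiJ BD lungs (SD, n = 3), 56.2 ± 5.06% in CAST/EiJ clean-air lungs (SD, n = 7), 58.7 ± 4.94% in C57BL/6J BD lungs (SD, n = 4) and 65.8 ± 2.50% in C57BL/6J clean-air lungs (SD, n = 5). miR-322-5p followed, with group means of up to 28.2%, reached in CAST/EiJ clean-air lungs. The other members with a value in every library each gave 5.30% or less as a group mean. Reads of the sequenced arms are compared here within one library type, and arms differ in how well they are captured.

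**Figure D1:**
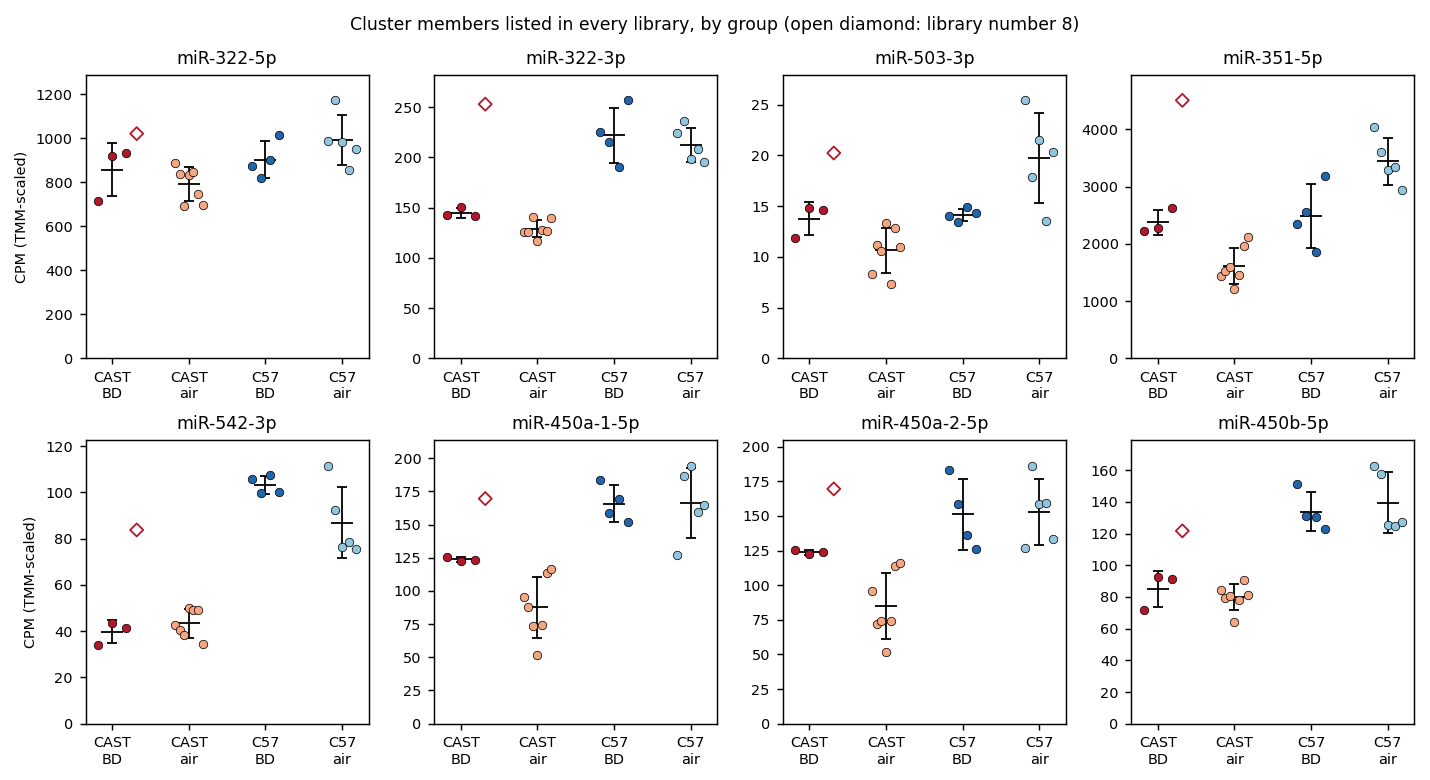
Level of each cluster member with a value in every library, in CPM on a linear axis, by strain and exposure. Points are libraries, bars are the mean and SD, and the open diamond is the library labelled number 8. In clean air the CAST/EiJ points lie below the C57BL/6J points in every panel but that of miR-322-5p, whose ranges overlap.

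To determine whether the strains differed without BD, CAST/EiJ clean-air lungs (n = 7) were compared with C57BL/6J clean-air lungs (n = 5). All 8 tested members were lower in CAST/EiJ. miR-351-5p was measured at 1206 to 2115 CPM in CAST/EiJ (median 1531) and at 4037, 3612, 3294, 3336 and 2939 CPM in C57BL/6J. No CAST/EiJ library reached the lowest C57BL/6J library, and the log2 difference was -1.09 ± 0.14 (SE; edgeR quasi-likelihood, Benjamini-Hochberg adjusted p = 3.47e-06). In all, 39.7% of the 320 miRNAs passed this test and 18.4% passed it in the lower direction. The ranges of 7 of the 8 members did not overlap in that direction, as for 9.38% of all miRNAs. These 7 include both miR-450a rows, which share their reads.

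Within the first part of the cluster, both arms of miR-322 were lower in CAST/EiJ, by different amounts. The 3p arm stood at 117 to 140 CPM in CAST/EiJ (median 127) and at 224, 236, 198, 208 and 195.4 CPM in C57BL/6J, with a log2 difference of -0.72 ± 0.09 (SE; edgeR adjusted p = 1.88e-06). The 5p arm, the miR-15/16 family member, stood at 695 to 888 CPM in CAST/EiJ (median 834) and at 859 to 1173 CPM in C57BL/6J (median 984). Its ranges overlapped and its log2 difference was -0.32 ± 0.10 (SE; edgeR adjusted p = 0.0134), the smallest of the 8. miR-503-3p, the arm opposite the miR-15/16-like one, was rare in both strains, at 7.31 to 13.3 CPM in CAST/EiJ and 13.6 to 25.4 CPM in C57BL/6J, with a log2 difference of -0.90 ± 0.16 (SE; edgeR adjusted p = 0.000136).

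In the part that follows, no CAST/EiJ library reached a C57BL/6J one for any of the 4 rows. miR-542-3p was measured at 34.3 to 50.2 CPM in CAST/EiJ (median 42.6) and at 112, 92.2, 76.3, 78.6 and 75.6 CPM in C57BL/6J, a log2 difference of -0.996 ± 0.12 (SE; edgeR adjusted p = 1.66e-06). miR-450b-5p stood at 64.2 to 90.8 CPM in CAST/EiJ and 125 to 163 CPM in C57BL/6J, with a log2 difference of -0.80 ± 0.10 (SE; edgeR adjusted p = 5.19e-06). The rows miR-450a-1-5p and miR-450a-2-5p, which share their reads, had log2 differences of -0.93 and -0.85.

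Summed marker miRNAs of some other cell types moved with this comparison, while those of striated muscle, erythroid cells and liver overlapped between the strains. The leukocyte markers miR-142, miR-150, miR-155 and miR-223 summed to 2564 to 4588 CPM in CAST/EiJ and 6266 to 9557 CPM in C57BL/6J. Those of smooth muscle and fibroblasts summed to 160444 to 202614 CPM in CAST/EiJ and 104233 to 137491 CPM in C57BL/6J. Their part in the differences was not tested. In bulk lung, fewer cells of a type and less RNA per cell cannot be told apart. Title numbers over 100 were carried by 5 of the CAST/EiJ and 1 of the C57BL/6J clean-air libraries. Among those 6 libraries alone, miR-351-5p had a log2 difference of -1.48 and miR-322-5p one of -0.27. The lone C57BL/6J library is assumed there to vary like the other groups. CAST/EiJ numbers 1 and 2 held 1963 and 2115 CPM of miR-351-5p, and C57BL/6J numbers 3 to 6 held 2939 to 3612 CPM. Over all settings the log2 difference of miR-351-5p ranged from -1.48 to -0.69. That of miR-450a-1-5p ranged from -1.01 to -0.53 and that of miR-450a-2-5p from -0.94 to -0.41.

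**Figure D2:**
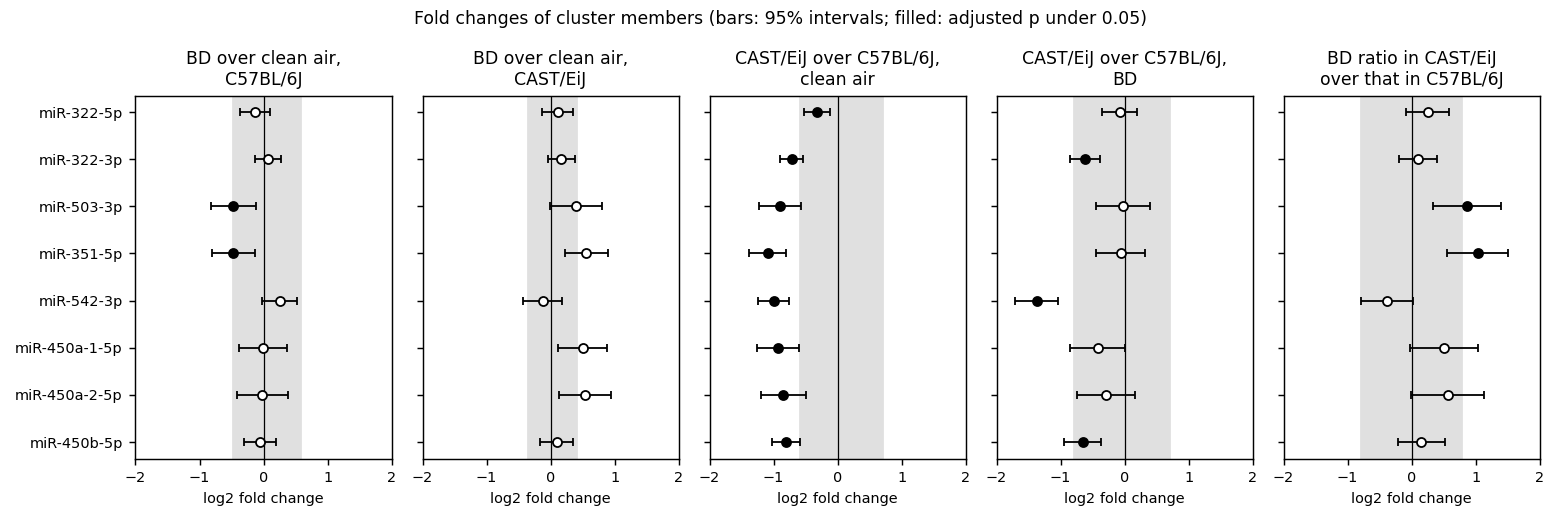
Log2 fold change of each member in the 4 comparisons and the difference between the strains' responses. Dots are edgeR estimates with 95% intervals, filled where the adjusted p is under 0.05, and the grey band holds the middle 80% of the 320 miRNAs. All 8 dots are filled and below 0 in the clean-air strain comparison.

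Under BD, CAST/EiJ lungs (n = 3) were again compared with C57BL/6J lungs (n = 4), and 3 members were called lower, where 41.9% of miRNAs were called and 23.4% in that direction. The ranges of 5 of the 8 members did not overlap, as for 24.4% of all miRNAs in the lower direction. These 5 include both miR-450a rows, which share their reads and were not called (edgeR adjusted p = 0.109 and 0.288). miR-542-3p stood at 34.1, 43.8 and 41.3 CPM in CAST/EiJ and at 105.6, 99.96, 107 and 100.3 CPM in C57BL/6J, a log2 difference of -1.38 ± 0.16 (SE; edgeR adjusted p = 2.28e-06). miR-450b-5p differed by -0.65 ± 0.14 on the log2 scale (SE; edgeR adjusted p = 0.00118) and miR-322-3p by -0.62 ± 0.11 (SE; edgeR adjusted p = 0.000346). miR-351-5p, at 2220, 2284 and 2625 CPM in CAST/EiJ and 2353, 2551, 1849 and 3187 CPM in C57BL/6J, overlapped fully, with a log2 difference of -0.06 and a 95% interval of -0.44 to 0.31. Under BD all CAST/EiJ libraries had title numbers up to 10 and all C57BL/6J libraries had higher ones, so strain and number cannot be told apart there.

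To determine how exposure changed the cluster, BD and clean-air lungs of each strain were compared. In C57BL/6J, 2 members fell, miR-351-5p and miR-503-3p, against 31.6% of miRNAs called and 12.5% called lower. miR-351-5p was measured at 2353, 2551, 1849 and 3187 CPM under BD and at 4037, 3612, 3294, 3336 and 2939 CPM in clean air, so that only the highest BD library lay within the clean-air range. Its log2 change was -0.47 ± 0.16 (SE; edgeR adjusted p = 0.0310). miR-503-3p was measured at 14.03, 13.4, 14.9 and 14.3 CPM under BD and at 25.4, 17.9, 21.6, 13.6 and 20.3 CPM in clean air, with 1 low clean-air library, and its log2 change was -0.47 ± 0.17 (SE; edgeR adjusted p = 0.0378). Both calls were lost with library number 8 kept in under its label, where the adjusted p became 0.0871 for miR-351-5p and 0.0536 for miR-503-3p, and both were lost with a covariate for title numbers of 10 or lower. Leaving out C57BL/6J BD replicate 1, 2 or 3 left 0 of the members called, and leaving out C57BL/6J clean-air replicate 1, 2, 3 or 5 left 1.

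The other 6 rows did not pass in C57BL/6J. miR-542-3p had a log2 change of 0.25 (edgeR adjusted p = 0.152) and miR-322-5p of -0.13 (edgeR adjusted p = 0.390). The other arm of the miR-503 hairpin, miR-503-5p, was not tested and did not go with the fall of miR-503-3p. It was listed at 7.39, 6.10, 8.24 and 13.4 CPM under BD. In clean air it was listed in 2 of 5 libraries, at 6.12 and 4.08 CPM. The leukocyte markers summed to 3762 to 5220 CPM under BD and 6266 to 9557 CPM in clean air in the small RNA, and the B and T cell genes to 27.7 to 73.2 CPM under BD and 82.4 to 157 CPM in clean air in the RNA-seq. Erythroid miRNAs summed to 5225 to 12234 CPM under BD and 4177 to 5611 CPM in clean air. Those of smooth muscle and fibroblasts summed to 136126 to 167038 CPM under BD and 104233 to 137491 CPM in clean air, and both sets overlapped. The part of these markers in the 2 changes was not tested.

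In CAST/EiJ (n = 3 BD and 7 clean air), edgeR called 0 members, where 2.81% of miRNAs were called, 1.25% higher and 1.56% lower. An unadjusted edgeR p under 0.05 was reached by 3 members and by 61 of the 320 miRNAs. The 3 include both miR-450a rows, which share their reads. DESeq2 called 1 and limma-voom 0. miR-351-5p was measured at 2220, 2284 and 2625 CPM under BD and at 1206 to 2115 CPM in clean air (median 1531). The ranges did not overlap, as for 4 of the 8 members, both miR-450a rows among them, and 4.38% of all miRNAs in the higher direction. The log2 difference was 0.56 ± 0.16 (SE; edgeR adjusted p = 0.0687). Clean-air libraries numbered 1 and 2 stood at 1963 and 2115 CPM, above the 5 numbered over 100, which held 1206 to 1596 CPM. Against those 2 alone the log2 difference was 0.22 (edgeR adjusted p = 0.896). The smooth muscle and fibroblast miRNAs miR-143, miR-145, miR-199a, miR-199b and miR-214 summed to 122689 to 134207 CPM under BD and 160444 to 202614 CPM in clean air, with no overlap. In the RNA-seq, 4 of the 6 smooth muscle genes were called lower under BD, Acta2, Cnn1, Myh11 and Tagln, where 3.37% of all genes were. Cnn1 had a log2 change of -0.98 (edgeR adjusted p = 0.0252). Acta2 and Myh11 lay near the threshold (edgeR adjusted p = 0.0431 and 0.0498), and Actg2 and Des were not called. The part of these markers in the members' differences was not tested. With library number 8 kept in, 3 members were called, and that library alone held 4506 CPM of miR-351-5p.

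A test of the difference between the strains' responses called 2 members, miR-351-5p at a log2 ratio of 1.03 ± 0.23 (SE; edgeR adjusted p = 0.00429) and miR-503-3p at 0.87 ± 0.26 (SE; edgeR adjusted p = 0.0180), where 27.8% of miRNAs were called. Both ratios stood above 0, higher in CAST/EiJ than in C57BL/6J. Without the title numbers over 100, neither passed, at 0.63 (edgeR adjusted p = 0.0810) for miR-351-5p and 0.60 (edgeR adjusted p = 0.185) for miR-503-3p, nor did they with a covariate for title numbers of 10 or lower. Without CAST/EiJ BD replicate 2, only miR-351-5p was called. The test draws on the C57BL/6J comparison, where exposure and title number cannot be told apart.

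The other 4 rows were not listed in every library and were not tested. miR-542-5p, at 4.52 to 13.3 CPM where listed, was unlisted only in 1 CAST/EiJ clean-air library. miR-503-5p, the miR-15/16-like arm, was listed in 1 of 3 CAST/EiJ BD, 5 of 7 CAST/EiJ clean-air, 4 of 4 C57BL/6J BD and 2 of 5 C57BL/6J clean-air libraries. miR-351-3p was listed in 2 of 4 C57BL/6J BD and 2 of 5 C57BL/6J clean-air libraries and, among CAST/EiJ labels, only in number 8. miR-450b-3p was listed only in the 3 deepest libraries, and the smallest value listed anywhere in the table was 10.5 counts.

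Whether members move together was asked within groups, after removing each group mean from log2 CPM in 19 libraries and summing the miR-450a loci. Of 21 pairs, 14 had a positive Pearson correlation and the median r was 0.18. Of all 51040 pairs of the 320 miRNAs, 25686 had a positive r. The median over them all was 0.0033, with a 90% quantile of 0.49. In that background, loci of the same sequence were not summed. Pairs share their libraries and are not independent.

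The pair of miR-322-3p and miR-351-5p had the highest r, 0.76, with Spearman's rho of 0.72 (permutation within groups, p = 0.00197 and 0.00262, adjusted over 21 pairs 0.0414 and 0.0550). Without the 2 libraries farthest from the median of miR-322-3p, r was 0.62. No pair was called with median-of-ratios factors, without the title numbers over 100, or in 12 of the 19 fits that left out 1 library, where the r of this pair was 0.68 to 0.83. Without C57BL/6J clean-air replicate 1, 2 pairs were called. The arms of the miR-322 hairpin, which arise from 1 precursor, had an r of 0.12 (permutation adjusted p = 0.823), and miR-542-3p with miR-450a-5p had the lowest r, -0.38 (permutation adjusted p = 0.481). Pairs of arms from the host transcript, other than miR-322-3p with miR-351-5p, had an r of -0.06 to 0.16. Pairs with an arm from outside it had an r of -0.38 to 0.51.

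**Figure D3:**
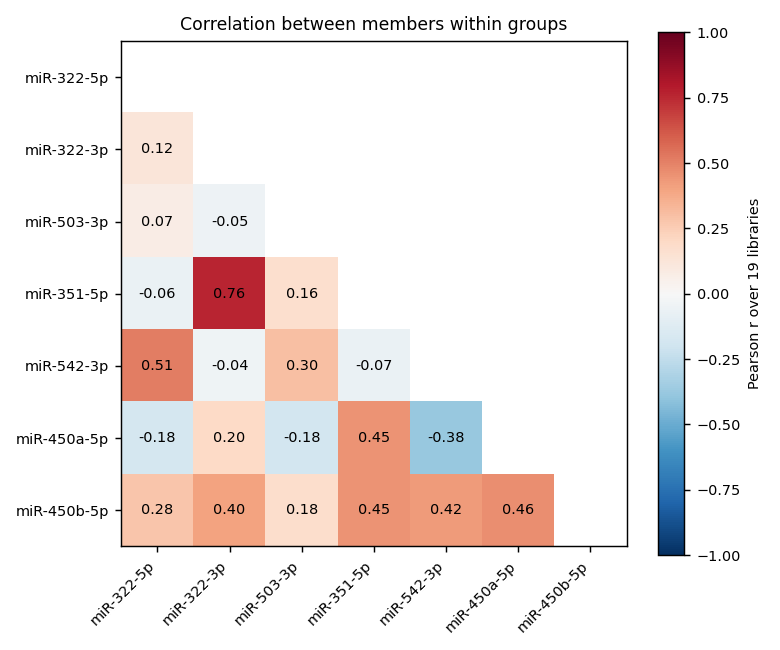
Pearson correlation between members across 19 libraries after removing group means. Colour runs from -1 to 1, and the value for miR-322-3p with miR-351-5p, 0.76, is the highest of the 21 pairs.

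Ratios within the cluster, chosen after seeing the data, were compared by exact two-sided permutation tests, 20 in all, and none passed adjustment. Because the ratios were chosen from these same values, the p-values are no independent support. Tests between the strains under BD could not pass, since the smallest p their design allows is 0.0571. In clean air the log2 ratio of miR-351-5p to miR-322-5p was 1.01 ± 0.39 in CAST/EiJ (SD, n = 7) and 1.80 ± 0.19 in C57BL/6J (SD, n = 5). These ranges did not overlap, and the exact p of 0.00253 is the smallest the design allows (adjusted 0.0505). The log2 ratio of the 5p to the 3p arm of miR-322 was 2.62 ± 0.23 in CAST/EiJ (SD, n = 7) and 2.22 ± 0.12 in C57BL/6J (SD, n = 5; exact permutation p = 0.00758, adjusted 0.0505). For BD in C57BL/6J, the log2 ratio of miR-542-3p to miR-450b-5p did not overlap. It was -0.37 ± 0.11 under BD (SD, n = 4) and -0.69 ± 0.09 in clean air (SD, n = 5). The exact permutation p of 0.0159 is the smallest possible there (adjusted 0.0794).

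The 5 other miRNAs most like the mean of the members across the 19 libraries, by Pearson r within groups, were miR-181c-3p (0.79), miR-195-3p (0.64), let-7e-3p (0.63), miR-449c-5p (0.60) and miR-671-3p (0.59). These values describe the libraries and carry no test. miR-181c-3p was called lower in CAST/EiJ clean-air lungs, with a log2 difference of -0.34 (edgeR adjusted p = 0.0125), as was miR-671-3p, at -0.39 (edgeR adjusted p = 0.0438), and miR-449c-5p was called higher there, at 1.41 (edgeR adjusted p = 0.00138). Under BD in C57BL/6J, miR-671-3p fell by 0.47 and miR-195-3p by 0.43 on the log2 scale (edgeR adjusted p = 0.0401 and 0.0398), and miR-449c-5p rose by 1.24 (edgeR adjusted p = 0.0101). For the difference between responses, miR-671-3p alone of the 5 was called, at a log2 ratio of 0.88 (edgeR adjusted p = 0.0121). Under BD, miR-181c-3p was called lower in CAST/EiJ, at -0.48 (edgeR adjusted p = 0.00846), and miR-671-3p higher, at 0.49 (edgeR adjusted p = 0.0451).

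Relatives that share a member's seed were set beside it. miR-351-5p made up 3.86 to 5.54% of the reads with its seed in CAST/EiJ BD lungs, 3.66 to 6.81% in CAST/EiJ clean-air lungs, 7.23 to 9.48% in C57BL/6J BD lungs and 6.92 to 15.8% in C57BL/6J clean-air lungs, and miR-125a-5p made up most of the rest. In clean air, none of the 3 miR-125 rows was called between the strains, and miR-125a-5p differed by -0.17 on the log2 scale (95% interval -0.63 to 0.30). That interval does not show that it was equal in the strains. For the difference between responses, miR-125a-5p was called at a log2 ratio of 1.14 ± 0.36 (SE; edgeR adjusted p = 0.0256).

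Of the 6 relatives of miR-322-5p, which all carry AGCAGCA at bases 2 to 8, miR-195-5p and miR-497-5p were called lower in CAST/EiJ clean-air lungs, by -0.61 and -0.51 on the log2 scale (edgeR adjusted p = 2.11e-05 and 0.0150), and miR-15a-5p was called higher, by 0.36 (edgeR adjusted p = 0.0350). miR-15b-5p and both miR-16-5p loci were not called. miR-497-5p also fell under BD in C57BL/6J, where it was measured at 460 to 1038 CPM under BD and 1074 to 1509 CPM in clean air, with a log2 change of -0.96 ± 0.19 (SE; edgeR adjusted p = 0.00115). miR-322-5p made up 4.29 to 7.59% of the reads with this seed over all libraries.

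**Figure D4:**
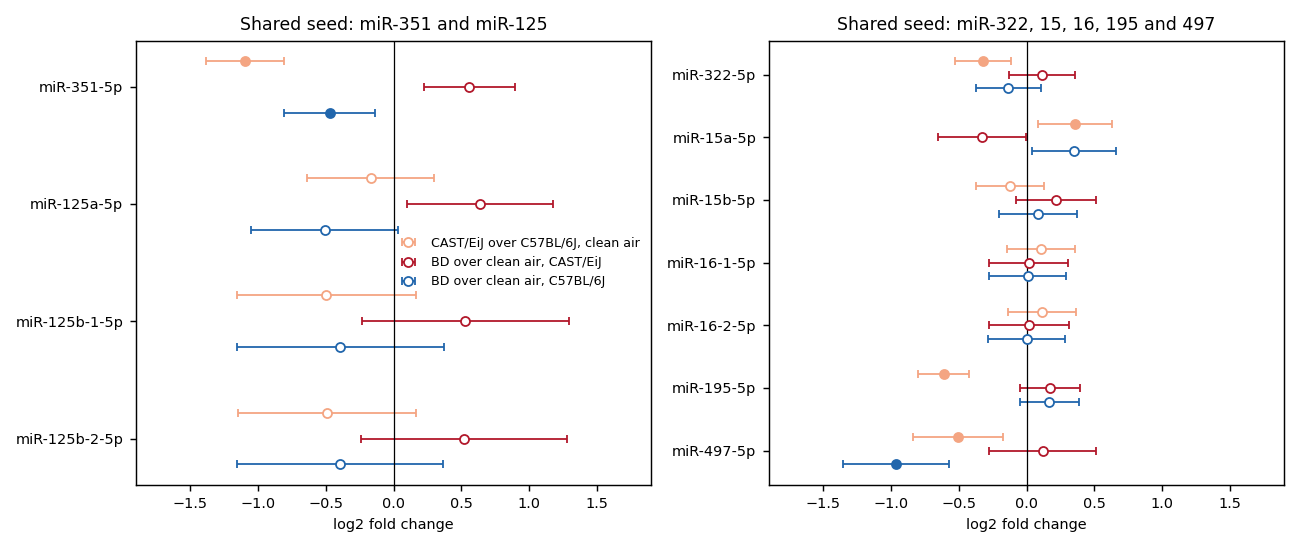
Log2 fold changes with 95% intervals of miR-351-5p and its relatives of the miR-125 family, left, and of miR-322-5p and its relatives, right. Filled dots have an adjusted p under 0.05. miR-351-5p has a filled dot at -1.09 in the clean-air strain comparison, and the miR-125 rows have open ones.

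The host transcript C430049B03Rik was measured by RNA-seq. It stood at 4.29 to 7.07 CPM in CAST/EiJ BD lungs (median 6.96, n = 5), 5.44 to 10.6 CPM in CAST/EiJ clean-air lungs (median 6.92, n = 7), 5.35 to 8.33 CPM in C57BL/6J BD lungs (median 6.56, n = 6) and 7.72 to 16.2 CPM in C57BL/6J clean-air lungs (median 11.9, n = 5). It fell under BD in C57BL/6J, where 10.7% of genes were called and 6.49% called lower, with a log2 change of -0.83 ± 0.19 (SE; edgeR adjusted p = 0.00711). In clean air, where 60.4% of genes were called, 29.4% higher and 31.0% lower, it was lower in CAST/EiJ by a log2 difference of -0.74 ± 0.18 (SE; edgeR adjusted p = 0.00136), which became -0.38 (adjusted p = 0.276) without the title numbers over 100.

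BD gave a log2 difference of -0.24 in the host in CAST/EiJ (edgeR adjusted p = 0.423), and the difference between the strains' responses was not called (log2 ratio 0.59, edgeR adjusted p = 0.144). Hprt, a housekeeping gene of purine salvage that neighbours the cluster, was higher in CAST/EiJ clean-air lungs, by 0.21 (edgeR adjusted p = 0.0133), and was not called in the other comparisons. Across 19 libraries of the same title number, host and mean member level had an r of 0.51 within groups and a rho of 0.42 (permutation p = 0.0580 and 0.130, adjusted over 8 relations 0.223 for r), and r was 0.27 without the 2 farthest. The mapping of RNA and small RNA libraries by number assumes that a number marks 1 mouse.

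**Figure D5:**
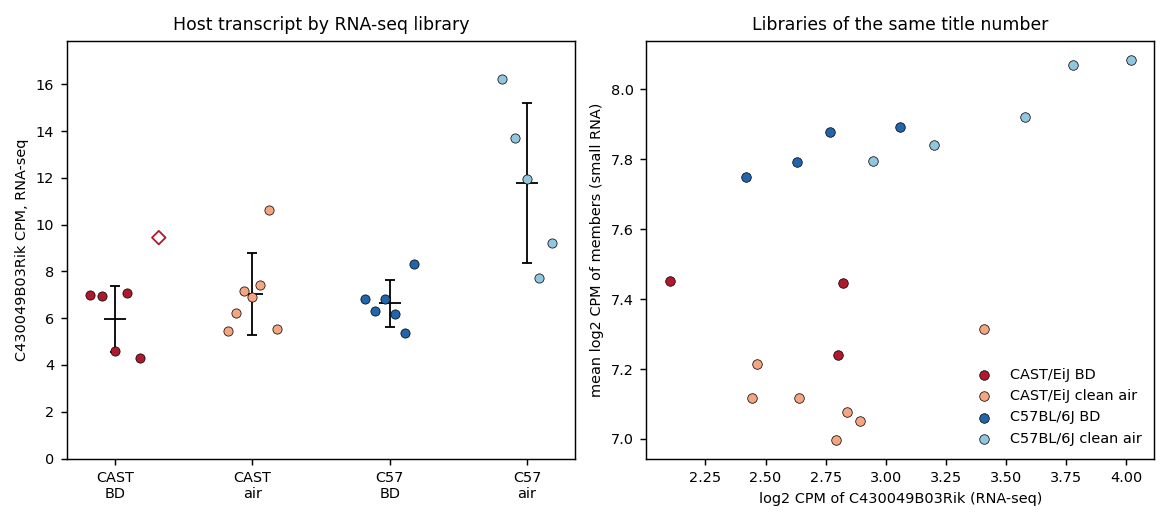
Left, RNA-seq level of the host transcript C430049B03Rik by group, with mean and SD, and the library labelled number 8 as an open diamond. Right, mean log2 CPM of the members against log2 CPM of the host in libraries of the same number; C57BL/6J clean-air libraries reach the highest values on both axes.

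Genes known as targets of the 2 seeds were described in the RNA-seq by counts. Of 16 listed targets of the miR-15/16 seed, 1 was called higher and 2 lower under BD in C57BL/6J, where 4.2% of genes were called higher and 6.49% lower. In CAST/EiJ, where 7.22% of genes were called, 3.86% higher and 3.37% lower, 1 was called higher and 1 lower. Wee1, a kinase that delays mitosis, rose in C57BL/6J to 27.3 to 36.0 CPM under BD, against 18.9 to 22.9 CPM in clean air (log2 change 0.62, edgeR adjusted p = 0.00041). Ccnd2 and Fgfr1, a D-type cyclin and a fibroblast growth factor receptor, fell there by 0.33 and 0.38 on the log2 scale (edgeR adjusted p = 0.0453 and 0.0376). Ccnd2 lost its call in 11 of the 23 fits that left out 1 library, Fgfr1 in 5 and Cdk6, below, in 8. In CAST/EiJ, cyclin D1 gene Ccnd1 fell by 0.59 (edgeR adjusted p = 0.00229) and its partner kinase gene Cdk6 rose by 0.41 (edgeR adjusted p = 0.0354). Between the strains, 3 of the 16 were called higher and 9 lower in CAST/EiJ clean-air lungs, where 60.4% of all genes were called, 29.4% higher and 31.0% lower.

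Of 12 listed targets of the miR-125 seed, 4 were called lower under BD in C57BL/6J and none in CAST/EiJ by edgeR, where DESeq2 called 1. Over all genes, 6.49% were called lower under BD in C57BL/6J and 7.22% were called in CAST/EiJ. Trp53, the gene of p53, stood at 9.73 to 16.1 CPM under BD and 16.9 to 28.5 CPM in clean air in C57BL/6J, a log2 change of -0.66 ± 0.15 (SE; edgeR adjusted p = 0.00563). Ets1 and Irf4, transcription factors of lymphocytes, fell by 0.51 and 0.95 on the log2 scale, and Tnfaip3, an inhibitor of NF-kB signalling, fell by 0.49. Irf4 (edgeR adjusted p = 0.0360) lost its call in 7 of the 23 fits that left out 1 library. Trp53, Ets1 and Tnfaip3 kept theirs. The median over the 12 genes was -0.33, beside -0.0024 over all genes. miR-351-5p fell in the same comparison. The B and T cell genes, given above, were lower in these BD libraries as well, and their part was not tested. In clean air, 7 of the 12 were called lower in CAST/EiJ and none higher by edgeR, where 60.4% of all genes were called and 31.0% called lower.

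For the difference between responses, where 9.44% of genes were called, 5.62% higher and 3.82% lower, 5 of the 12 targets of the miR-125 seed were called higher, and of the 16 targets of the miR-15/16 seed 2 were called higher and 2 lower. Under BD, where 42.7% of genes were called between the strains, 20.4% higher and 22.3% lower, the counts in CAST/EiJ were 1 higher and 3 lower of the 12, and 1 higher and 4 lower of the 16.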

How the data were processed

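Small RNA and RNA-seq tables of the authors were used; 24 ATAC samples of the series were not analysed here. The small RNA table holds estimated counts that the authors deposited, with fractions where reads were shared, and the RNA-seq table holds counts that the authors deposited. RNA was prepared with RNeasy and TruSeq kits, per the labels' protocols. Bowtie and GSNAP and the build mm9 are named per the submitters' processing notes; their versions and settings, and what decides that a miRNA value is unlisted, are not given in the sources used here. Estimated counts were rounded. CPM values are counts scaled by TMM library sizes.

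Small RNA rows with a value in every library were fitted with edgeR 4.0.16 in R 4.3.3 (quasi-likelihood test, all 4 groups, no covariate, Benjamini-Hochberg over 320 rows, threshold 0.05), and RNA-seq genes likewise after filtering on low counts. The library numbered 8 was left out and is an alternative. DESeq2 1.42.0 and limma 3.58.1 were alternatives, as were other scaling, filters, covariates and leaving out each library. Correlations used log2 CPM with a pseudocount and 100000 permutations within groups. Named rows were the cluster rows, all seed relatives, the 5 most alike miRNAs, the host and neighbours, and up to 4 called targets per list and comparison. The ratios within the cluster and the settings that keep one side of the title numbers were chosen after seeing the data. The members and lists were chosen with earlier results of these data known. The labels do not say that samples come from separate mice, so p-values measure the spread between these samples, which may be technical. On counts simulated for 320 miRNAs, the test recovered 85.0% of 1.5-fold changes in the clean-air strain comparison, 55.0% in the BD comparison of C57BL/6J and 60.0% in that of CAST/EiJ. Sequences were found for 411 of 480 rows and for all 12 members.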

Additional observations from a re-analysis of the deposited data

Results flagged for a closer look

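Values of each group of 4 to 10 libraries were searched for a library that stood apart from the rest of its group, a search that marks about 1 in 20 groups by chance. Of 53 groups, 3 were marked. The log2 ratio of the later part of the cluster (miR-542 and miR-450) to the first part was -3.29 in C57BL/6J clean-air replicate 1, against -3.07 to -3.00 in the other 4. C430049B03Rik stood at 10.6 CPM in CAST/EiJ clean-air replicate 6, against 5.44 to 7.43 CPM in the other 6. Hprt stood at 65.0 CPM in C57BL/6J clean-air replicate 1, against 56.9 to 58.7 CPM in the other 4.

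By the edgeR test of the difference, the response to BD differed between the strains in 2 of the 8 members and 3 seed relatives. It also differed in 1 of the most alike miRNAs and 6 named target genes. The same test called 27.8% of the 320 miRNAs and 9.44% of all genes. Those 6 genes were named because they were called for BD in 1 strain, so their count cannot be set against that share. Arid3b, Prdm1 and Igf1r, listed targets that were not named, were called as well. As given above, both member calls were lost under some settings of the title numbers. The log2 ratio of the responses, CAST/EiJ over C57BL/6J, was 1.03 for miR-351-5p and 0.87 for miR-503-3p. Among seed relatives it was 1.14 for miR-125a-5p, 1.08 for miR-497-5p and -0.68 for miR-15a-5p, and it was 0.88 for miR-671-3p. Among miR-125 seed targets it was 0.94 for Trp53, 0.72 for Tnfaip3 and 0.43 for Ets1. Among miR-15/16 seed targets it was 0.58 for Cdk6, -0.45 for Ccnd1 and -0.62 for Wee1.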

How the results depend on the processing

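The direction and the call of the clean-air strain difference held for most settings: 8 members were called lower, 7 to 8 with 1 library left out, and 5 among title numbers over 100 only. The other counts of members moved more. BD in C57BL/6J gave 0 members with library number 8, with unlisted values as 0, with a covariate for title numbers 1 to 10 or with the only clean-air library numbered over 100 as the control, 1 with limma-voom or the compared groups alone, and 0 to 2 with 1 library left out. BD in CAST/EiJ gave 3 with library number 8, 1 with DESeq2 and 0 to 3 with 1 library left out, 3 of them without CAST/EiJ clean-air replicate 7. The strains under BD gave 5 with the covariate for numbers 1 to 10 and 3 to 4 with 1 library left out. The difference between responses gave 0 without numbers over 100 or with that covariate, and 1 to 3 with 1 library left out. Pairs called numbered 0 with median-of-ratios factors or without numbers over 100, and 0 to 2 with 1 library left out. The cause was not tested.

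Over all miRNAs, the count for BD in C57BL/6J was 3 with that 1 control library, and that for BD in CAST/EiJ was 18 with DESeq2, against 9. C430049B03Rik in clean air was -0.38 without numbers over 100. Its difference between responses ranged over 0.44 to 0.72 with 1 library left out, past the threshold without CAST/EiJ clean-air replicate 6. Over all settings it went down to 0.24. miR-15/16 seed targets called under BD in C57BL/6J numbered 1 with library number 8 or no filter on low counts, 5 without numbers over 100 or with these as a covariate, and 1 to 4 with 1 library left out. In CAST/EiJ they numbered 1 with the groups alone or without numbers over 100, 0 with these as a covariate and 1 to 3 with 1 library left out. miR-125 seed targets called in CAST/EiJ numbered 1 with library number 8 or DESeq2 and 0 to 2 with 1 library left out.

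Signs turned only for values that were not called. For BD in C57BL/6J, miR-450a-1-5p became 0.0107 with unlisted values as 0, 0.0035 with limma-voom, 0.44 with the covariate for numbers 1 to 10 and 0.38 with the 1 control library over 100. miR-450a-2-5p became 0.41 and 0.25 under the last 2 of these settings, miR-450b-5p 0.0023 without numbers over 100, and miR-322-3p -0.0139 and miR-542-3p -0.11 with that 1 control library. For BD in CAST/EiJ, miR-542-3p became 0.23 with library number 8 and 0.0413 with either covariate, and miR-450b-5p -0.0126 without numbers over 100 and -0.0128 with clean-air numbers 1 and 2 only. For the strains under BD, miR-351-5p became 0.23 and miR-503-3p 0.13 with library number 8, miR-503-3p 0.0193 with median-of-ratios factors, 0.0230 with DESeq2 and 0.0163 with the covariate for numbers 1 to 10, and miR-322-5p 0.0407 with that covariate. For the difference between responses, miR-450b-5p became -0.0149 without numbers over 100, and miR-450a-1-5p -0.31 and miR-450a-2-5p -0.22 with that covariate.

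With 1 library left out, BD in C57BL/6J gave ranges of -0.0870 to 0.0562 for miR-450a-1-5p, -0.13 to 0.0629 for miR-450a-2-5p, -0.0121 to 0.13 for miR-322-3p and -0.12 to 0.0021 for miR-450b-5p. The strains under BD gave -0.18 to 0.0780 for miR-351-5p, -0.14 to 0.0371 for miR-322-5p, -0.0903 to 0.0566 for miR-503-3p and -0.0789 to 0.00073 for Hprt.

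No paired analysis was possible because no title number occurs in 2 groups of one assay, and the replicate numbers only name samples. No value under 10.5 counts is listed, so an unlisted arm is not shown to be absent.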
